A study of Sus scrofa domesticus with 12 samples.

Results

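Genes of the interferon response and of innate sensing were followed in pig muscle after volumetric muscle loss (VML), the surgical removal of more muscle than the limb can regrow. They were chosen by name, as symbols that begin with IFI, IFIT, IFITM, IFIH, IRF, ISG, OAS, MX, GBP, STAT, IFNAR, IFNGR, TLR, NLRP or NOD followed by a digit. Of the 11506 genes listed, 58 met this rule. By role they were 20 interferon-induced effectors, 11 receptor and STAT genes, 8 interferon regulatory factors (IRFs), 16 sensors and 3 genes that share a symbol stem with the others but not an established role. After a filter on low values 47 of the 58 were tested and 11 were not.

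RNA was sequenced from the peroneus tertius (PT) muscle of female Yorkshire Cross pigs 12 weeks post-surgery, as 12 libraries from the limbs of 11 pigs. Sham-operated limbs (2, pigs 025 and 026) had the muscle exposed and none of it taken. Every injured limb had a block of the middle PT muscle cut out and was left non-repaired (2, pigs 017 and 023), filled with a hyaluronic acid hydrogel (Hya-repaired, label HA, 2, pigs 016 and 017), or filled with a decellularized extracellular matrix (ECM-repaired, label ECM-SIS, 6, pigs 013, 014, 018, 021, 022 and 024). Pig 017 is in 2 conditions, non-repaired and Hya-repaired, surgery was bilateral, and the study used small intestine submucosa and urinary bladder matrix while the labels give the ECM limbs as 1 kind, so they were kept as 1 group.

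Interferons are secreted proteins that bind paired receptor chains on most cells. Receptor-bound JAK kinases then phosphorylate STAT proteins, which with IRF9 enter the nucleus and switch on antiviral effectors such as MX, OAS, IFIT and ISG15. Toll-like receptors (TLRs), NOD proteins and IFIH1 lie upstream and recognize microbial products or molecules released from damaged tissue, which in muscle injury makes macrophages that carry these receptors a prominent early source of cytokines. Type II interferon acts through IFNGR1 and IFNGR2 and is best known for its action on macrophages, where it induces GBP genes and antigen processing.

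Values are TPM, transcript abundances that are corrected for transcript length and scaled to a common sum in each library, so the depth of a library is not known from them. The genes listed held 71.5 to 82.7% of that sum. Fold changes are differences of log2(TPM + 0.5) from limma with Benjamini-Hochberg adjustment over 8782 tested genes, at an adjusted p threshold of 0.05, and "VML-injured" is the mean of the 3 injured conditions. Muscle fiber transcripts held 23.6 and 23.8% of the listed TPM in sham-operated muscle, against 1.53 to 11.7% in injured limbs. In this fixed-sum unit the tested genes as a whole had a median log2 fold change of 0.73 in VML-injured muscle. It was 0.01 after libraries were rescaled by trimmed means of log ratios and -0.01 after median-of-ratios rescaling, so the counts of members are given on both scales, as deposited and rescaled by trimmed means. Macrophage markers moved with the same contrast. All 12 tested rose (C1QA by a log2 fold change of 4.84, CD68 by 3.92 and CD163 by 2.68), their summed level was 0.00562 to 0.00923% of the listed TPM in sham-operated and 0.0972 to 0.273% in injured limbs, and CSF1R was not analysed here. Of 12 T and NK cell markers 5 were tested, of which 4 rose as deposited and 2 rescaled. The 12 had a summed level of 0.000456 to 0.000898% in sham-operated and 0.00201 to 0.0104% in injured limbs. All 5 tested, and the macrophage markers MSR1, ITGAM and LYZ, passed the filter on low values only through injured limbs. The calls of these markers are therefore no support for a difference. No marker of either list was at 0 in every library. Of 15 muscle fiber genes 11 fell as deposited and 14 rescaled. Of 11 fibroblast genes 10 were tested and all 10 rose on both scales. Their summed level was 0.162 to 0.240% in sham-operated and 5.21 to 12.6% in injured limbs. The fibroblast gene not tested, COL1A1, was listed at 0 in all 12 libraries. Of 6 tested endothelial genes 0 were called as deposited, and 2 fell rescaled. Beside these marker counts, 49.4% of all tested genes were higher and 7.66% lower as deposited, and 29.0% and 28.0% rescaled. In bulk muscle more cells of a type and more RNA per cell cannot be told apart, and the part these markers have in the results below was not tested.

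VML-injured muscle held higher levels of many of these genes. Of 47 tested, 28 were higher than in sham-operated muscle (59.6%) and 0 were lower, beside 49.4% of all tested genes higher and 7.66% lower. The median log2 fold change of the 47 was 1.20, beside 0.73 for all tested genes, and 33 of the 47 lay above that median. Every injured limb exceeded both sham-operated limbs for 28 members, again 59.6%, beside 49.8% of all tested genes, and every injured limb lay below both for 1, STAT5B. Together the 58 genes held 0.0496 and 0.0653% of the listed TPM in sham-operated limbs and 0.110 to 0.211% in injured limbs. After rescaling, 20 members were higher (42.6%) and 5 were lower (10.6%), beside 29.0% and 28.0% of all tested genes, with a median of 0.50 beside 0.01. Leaving out the sham-operated limb of pig 025 lowered the count of members higher. That fit keeps 1 sham-operated limb, which weakens the test of every gene. The share of all tested genes called in it is not given here.

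**Figure D1:**
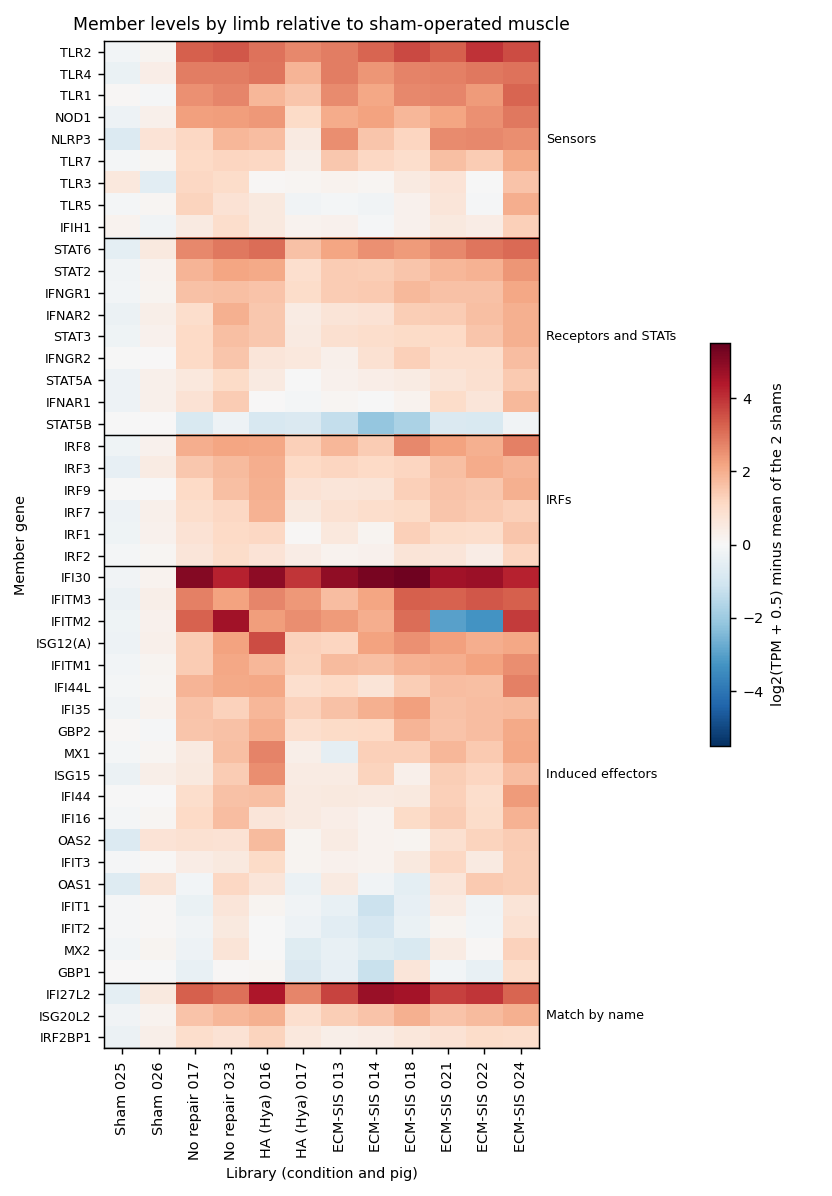
Heat map of 46 of the 47 tested members (vertical axis, grouped by role) in the 12 libraries (horizontal axis, condition and pig), coloured by log2(TPM + 0.5) minus the mean of the 2 sham-operated limbs. TLR2, TLR4, IFI30 and IFI27L2 were high in every injured limb, IFIT1, IFIT2, MX2 and GBP1 lay on either side of sham, and IFITM2 was low in ECM-repaired limbs of pigs 021 and 022.

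Sensors of bacterial and damage products were among the members with the largest rises. TLR2, which recognizes bacterial lipoproteins, was at 0.607 and 0.839 TPM in the sham-operated limbs. It stood at 11.2 and 12.5 TPM in the non-repaired limbs, at 9.11 and 7.07 TPM in the Hya-repaired limbs and at 8.14 to 18.5 TPM (median 12.9) in the ECM-repaired limbs. No injured limb overlapped sham, and the log2 fold change was 3.19 ± 0.28 (SE, limma adjusted p = 3.47e-06), or 2.64 rescaled. It was 3.42 in ECM-repaired, 3.35 in non-repaired and 2.81 in Hya-repaired muscle, comparisons that share the 2 sham-operated limbs.

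TLR4, the receptor for lipopolysaccharide, rose from 0.951 and 1.97 TPM to 12.8 and 12.9 TPM in non-repaired, 14.1 and 6.36 TPM in Hya-repaired and 9.56 to 14.7 TPM (median 12.7) in ECM-repaired limbs. The Hya-repaired limb of pig 017 was the lowest injured limb and still above both shams. The log2 fold change of TLR4 was 2.66 ± 0.30 (SE, limma adjusted p = 1.64e-05). TLR1, which pairs with TLR2, rose by a log2 fold change of 2.29 ± 0.28 (SE), from 0.539 and 0.433 TPM to between 2.31 and 8.58 TPM. NOD1, a cytosolic receptor for fragments of bacterial peptidoglycan, rose by 2.08 ± 0.36 on the log2 scale (SE), from 0.302 and 0.666 TPM to between 1.48 and 6.69 TPM. These 4 kept their call with each limb left out in turn and after rescaling. All 4 passed the filter on low values only through injured limbs. Their calls and p-values are therefore no support for a difference, and the limb values are given as description.

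NLRP3, the sensor of an inflammasome that activates caspase 1, stood at 0.0626 and 1.08 TPM in sham-operated muscle against 0.823 to 5.38 TPM in injured limbs, so the groups overlapped at the Hya-repaired limb of pig 017. Its log2 fold change was 1.58 ± 0.50 (SE, limma adjusted p = 0.0173) and fell to 0.84 without pig 025, with an adjusted p of 0.315. TLR7, an endosomal receptor for single-stranded RNA, rose from 0.202 and 0.330 TPM to between 0.468 and 2.75 TPM, a log2 fold change of 1.11 ± 0.32 (SE, limma adjusted p = 0.0106), a call that ended without pig 025. The sensors of double-stranded RNA were not called. TLR3 was at 1.94 and 0.585 TPM in sham-operated and 1.11 to 4.33 TPM in injured limbs, and IFIH1 (MDA5) at 1.60 and 1.12 TPM against 1.28 to 4.07 TPM, with log2 fold changes of 0.56 and 0.51 as deposited and -0.04 and -0.12 rescaled. TLR5, the flagellin receptor, was not called either (log2 fold change 0.54, and -0.06 rescaled).

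In all, 6 of the 9 tested sensors were higher (66.7%) and 0 lower, on either scale. Of all tested genes 49.4% were higher and 7.66% lower as deposited, and 29.0% and 28.0% rescaled. The median log2 fold change of the sensors was 1.59 (1.22 rescaled) beside 0.73 (0.01) for all tested genes. The count of called sensors does not stand as evidence for the sensors as a set. Nor does the call of a single sensor that entered the tests through an injured condition support a difference. Of the 9, 8 lay under 1 TPM in at least 1 sham-operated limb and entered the tests through an injured condition, as did IRF8. Of those 9 genes 7 were called, and of the 38 members at 1 TPM or more in both sham-operated limbs 21 were higher. The shares among all tested genes split in this way are not given here, so neither count is read against a background. The other 7 sensors were below the filter. NLRP5, a gene of the oocyte, was listed at 0 in all 12 libraries. TLR10 reached 2.72 TPM, TLR9 2.06 TPM and TLR8 2.03 TPM in their highest ECM-repaired limb, TLR6 reached 1.05 TPM, and NLRP12 and NOD2 stayed at or under 0.236 TPM.

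**Figure D2:**
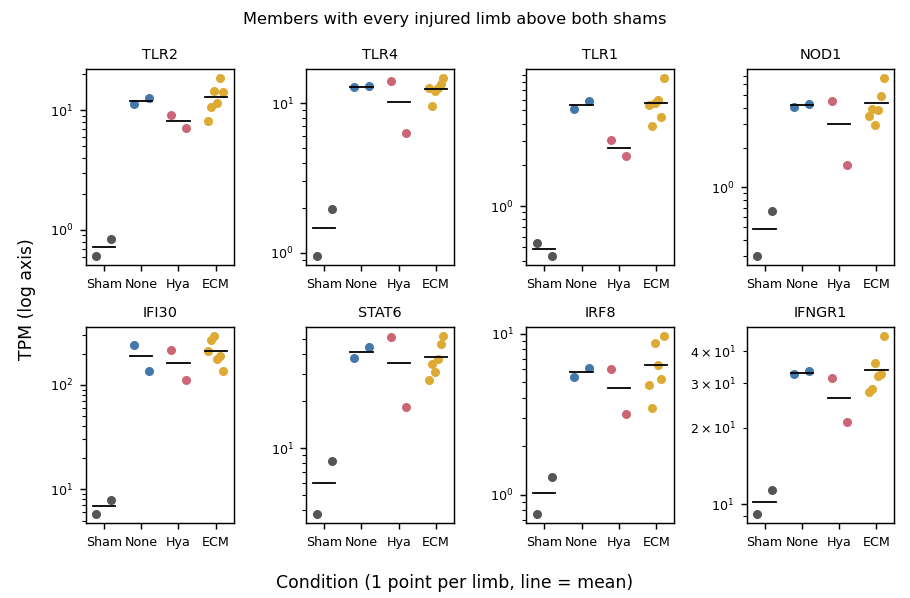
TPM on a log axis (vertical) by condition (horizontal) for TLR2, TLR4, TLR1, NOD1, IFI30, STAT6, IRF8 and IFNGR1, with 1 point for each limb and a line at the mean of each condition. All 10 injured limbs lie above both sham-operated limbs in each panel, and the lower Hya-repaired limb is that of pig 017.

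Among effectors, the largest rise belonged to IFI30 (GILT), a lysosomal reductase that unfolds proteins for antigen presentation. It was at 5.77 and 7.89 TPM in the sham-operated limbs. It was at 239.5 and 135.9 TPM in non-repaired, 216.3 and 110.8 TPM in Hya-repaired and 135.4 to 293.0 TPM (median 200.9) in ECM-repaired limbs, with no overlap with sham. The log2 fold change was 4.63 ± 0.34 (SE, limma adjusted p = 9.60e-07) and 3.87 rescaled, above that of 99.1% of tested genes as deposited.

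The IFITM proteins block entry of viruses at cell membranes, and their genes are near-identical copies between which reads may be split, so the level of each is uncertain. IFITM3 rose from 16.1 and 25.7 TPM to 141.9 and 96.1 TPM in non-repaired, 133.3 and 107.7 TPM in Hya-repaired and 66.7 to 220.2 TPM (median 202.3) in ECM-repaired limbs, a log2 fold change of 2.62 ± 0.43 (SE, limma adjusted p = 0.000269). IFITM1 rose by 1.76 on the log2 scale. IFITM2 was at 3.89 and 5.61 TPM in sham-operated limbs and at 20.1 to 127.3 TPM in 8 injured limbs, but at 0.146 and 0.0268 TPM in the ECM-repaired limbs of pigs 021 and 022, and was not called (log2 fold change 2.39 ± 1.75, SE, limma adjusted p = 0.262). The sum of IFITM1, IFITM2 and IFITM3, to which such a split matters less, was 35.2 and 49.8 TPM in sham-operated limbs and 150.4 to 380.3 TPM in injured limbs, with 269.3 and 298.5 TPM in those of pigs 021 and 022.

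The other effectors that rose on both scales were ISG12(A), a member of the IFI27 family (log2 fold change 2.09), IFI44L (1.68), IFI35 (1.60), which partners NMI in the cytoplasm, and GBP2 (1.53), a guanylate-binding GTPase induced by type II interferon. The calls of ISG12(A) and IFI44L ended without the sham-operated limb of pig 025. IFI44 (1.14) and the DNA sensor IFI16 (0.99) were called as deposited and not after rescaling (0.43 and 0.23), and leaving out any of 6 limbs for IFI44 or of 7 for IFI16 ended the call.

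The antiviral effectors ISG15, MX1, OAS1 and IFIT1 were not called. ISG15, a ubiquitin-like modifier, was at 4.38 and 6.95 TPM in sham-operated limbs, at 8.13 and 15.3 TPM in non-repaired, 34.6 and 7.79 TPM in Hya-repaired and 6.87 to 19.1 TPM (median 13.4) in ECM-repaired limbs. Its highest limb was the Hya-repaired limb of pig 016, and an ECM-repaired limb overlapped sham. The log2 fold change of 1.16 (95% interval 0.09 to 2.23) had a limma adjusted p of 0.0604, and the gene was called without the Hya-repaired limb of pig 017 or the ECM-repaired limb of pig 018.

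MX1, a GTPase that traps viral nucleocapsids, was at 3.72 and 4.38 TPM in sham-operated, 5.85 and 13.9 TPM in non-repaired, 29.6 and 5.14 TPM in Hya-repaired and 2.71 to 19.5 TPM (median 11.3) in ECM-repaired limbs. The ECM-repaired limb of pig 013 lay below both shams and the other injured limbs above, and the log2 fold change of 1.28 (95% interval -0.16 to 2.73) had a limma adjusted p of 0.116 and was called without that limb or without the Hya-repaired limb of pig 017. OAS1, which makes the second messenger of RNase L, was at 6.76 and 18.5 TPM in sham-operated and 7.69 to 31.1 TPM in injured limbs, so the groups overlapped across most of their range. IFIT1, which binds viral RNA caps, was at 6.59 and 7.34 TPM in sham-operated and 2.82 to 11.7 TPM in injured limbs, with a log2 fold change of -0.02 (95% interval -0.94 to 0.91).

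GBP1, another interferon-induced GTPase, was at 10.8 and 10.3 TPM in sham-operated and 4.22 to 21.2 TPM in injured limbs, with a log2 fold change of -0.21. IFIT2 and MX2 were at -0.05 each, IFIT3 at 0.59 and OAS2 at 0.82, none of them called. The direction of several depends on the scale. After rescaling IFIT1 (-0.77), IFIT2 (-0.75) and GBP1 (-0.98) were lower at limma adjusted p values of 0.0470, 0.0270 and 0.0431, while OAS1 and IFIT3 turned to -0.36 and -0.13 without a call. By count, 9 of 19 tested effectors were higher (47.4%) and 0 lower with a median log2 fold change of 1.16, beside 49.4% higher, 7.66% lower and 0.73 for all tested genes. Rescaled, 7 effectors were higher (36.8%) and 3 lower (15.8%) with a median of 0.43, beside 29.0%, 28.0% and 0.01. The share of effectors that were higher was thus near the background as deposited. The exonuclease gene ISG20 was below the filter and did not exceed 0.341 TPM.

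**Figure D3:**
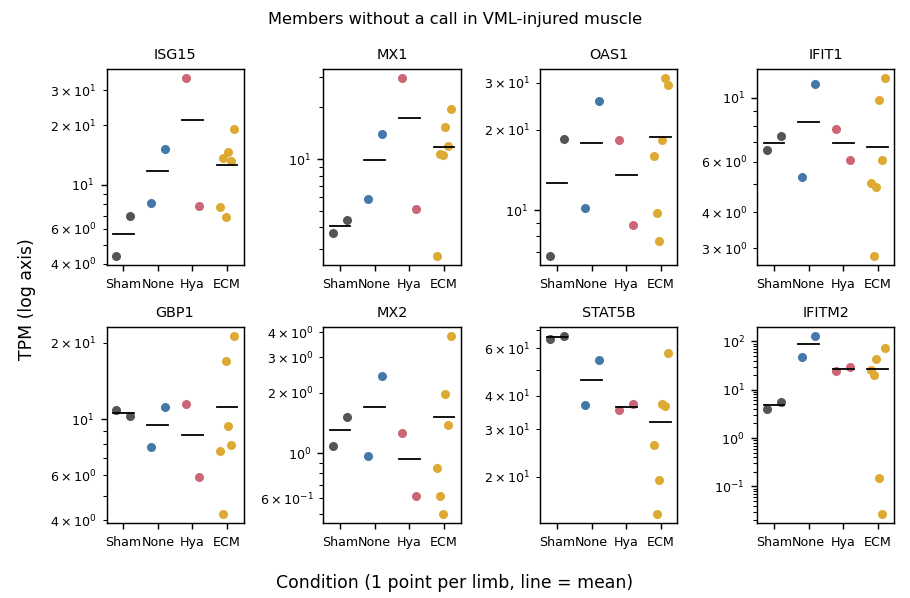
TPM on a log axis (vertical) by condition (horizontal) for ISG15, MX1, OAS1, IFIT1, GBP1, MX2, STAT5B and IFITM2, with 1 point for each limb and a line at the mean of each condition. For ISG15, MX1, OAS1, IFIT1, GBP1, MX2 and IFITM2 no side of sham holds all injured limbs, and every injured limb lies below both shams for STAT5B.

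STAT genes did not move together. STAT6, the transducer of interleukin-4 and interleukin-13, rose from 3.78 and 8.26 TPM to 38.1 and 44.5 TPM in non-repaired, 51.55 and 18.46 TPM in Hya-repaired and 27.4 to 52.3 TPM (median 36.1) in ECM-repaired limbs. Its log2 fold change was 2.59 ± 0.37 (SE, limma adjusted p = 0.000103) and 1.83 rescaled. STAT2, a partner of IRF9 downstream of type I interferon, rose by a log2 fold change of 1.75 (1.00 rescaled). STAT3, the transducer of interleukin-6 family cytokines, was at 31.8 and 44.9 TPM in sham-operated and 53.4 to 147.0 TPM in injured limbs, a log2 fold change of 1.20 that was called as deposited (limma adjusted p = 0.00727) and neither rescaled nor without pig 025.

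STAT5B, which transduces growth hormone signals in muscle, was at 65.1 and 66.5 TPM in sham-operated, 37.1 and 54.5 TPM in non-repaired, 35.3 and 37.2 TPM in Hya-repaired and 14.6 to 57.5 TPM (median 31.4) in ECM-repaired limbs. Every injured limb was below both shams. The log2 fold change was -0.86 in VML-injured muscle (limma adjusted p = 0.0803), -1.17 in ECM-repaired muscle, where STAT5B was lower (limma adjusted p = 0.0259), and -1.65 in VML-injured muscle rescaled, also called. The call in ECM-repaired muscle as deposited ended when the sham-operated limb of pig 025 or that of pig 026 was left out. STAT5A had a log2 fold change of 0.58 that turned to -0.15 on rescaling, without a call on either, and STAT4 was below the filter at no more than 0.403 TPM.

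Of the receptor chains, IFNGR1 for type II interferon rose from 9.15 and 11.3 TPM to 32.65 and 33.36 TPM in non-repaired, 31.4 and 21.1 TPM in Hya-repaired and 27.6 to 45.9 TPM (median 32.3) in ECM-repaired limbs, without overlap with sham. Its log2 fold change was 1.53 ± 0.23 (SE, limma adjusted p = 0.000154) and 0.76 rescaled, called on both. The second chain IFNGR2 (log2 fold change 0.97) and the type I chain IFNAR2 (1.24) were called as deposited alone. The type I chain IFNAR1 was at 7.11 and 10.6 TPM in sham-operated and 7.98 to 30.9 TPM in injured limbs, and its log2 fold change of 0.56 (95% interval -0.32 to 1.45) turned to -0.21 on rescaling, without a call. Of 10 receptor and STAT genes tested, 6 were higher (60.0%, beside 49.4% of all tested genes) and 0 lower (beside 7.66%). The median log2 fold change was 1.09. Rescaled, 3 were higher (30.0%, beside 29.0%) and 2 lower (20%, beside 28.0%), with a median of 0.30.

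IRF8, a factor of macrophage and dendritic cell differentiation, rose from 0.758 and 1.28 TPM to 5.39 and 6.14 TPM in non-repaired, 6.03 and 3.18 TPM in Hya-repaired and 3.45 to 9.63 TPM (median 5.79) in ECM-repaired limbs. Its log2 fold change was 1.96 ± 0.36 (SE, limma adjusted p = 0.000649). IRF8 passed the filter on low values only through injured limbs, so this call is no support for a difference. IRF3, which drives the first interferon-β made in an infected cell, rose from 6.37 and 12.4 TPM to between 19.4 and 37.9 TPM in injured limbs, a log2 fold change of 1.55 (0.78 rescaled, called on both, and not without pig 025). IRF7, which amplifies type I interferon, was at 1.98 and 3.17 TPM in sham-operated and 3.93 to 10.9 TPM in injured limbs, and IRF9 at 7.18 and 7.55 TPM against 12.2 to 30.4 TPM.

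The log2 fold changes of IRF7 and IRF9 were 1.16 and 1.35 as deposited, both called, and 0.46 and 0.58 rescaled, neither called. IRF1, the early factor of type II interferon, was at 3.93 and 5.81 TPM in sham-operated and 5.07 to 14.7 TPM in injured limbs, and its log2 fold change was 0.83 (adjusted p = 0.0695 with limma). IRF2, its antagonist, was at 0.66 on the log2 scale (adjusted p = 0.0516 with limma) and turned to -0.11 on rescaling. The lymphocyte factor IRF4 was below the filter, at no more than 1.19 TPM. Of the 6 IRFs tested 4 were higher (66.7%, beside 49.4% of all tested genes), and 2 rescaled (33.3%, beside 29.0%).

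The 3 genes matched by stem alone all rose as deposited. IFI27L2, a member of the IFI27 family, was at 6.90 and 14.8 TPM in sham-operated, 104.0 and 87.1 TPM in non-repaired, 231.7 and 68.2 TPM in Hya-repaired and 96.1 to 285.2 TPM (median 151.5) in ECM-repaired limbs. Its log2 fold change of 3.57 ± 0.47 (SE, limma adjusted p = 4.91e-05) was the second largest of the 47. ISG20L2, which processes ribosomal RNA, rose by 1.61 (0.87 rescaled, called on both), and the corepressor IRF2BP1 by 0.82 (0.05 rescaled, not called).

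**Figure D4:**
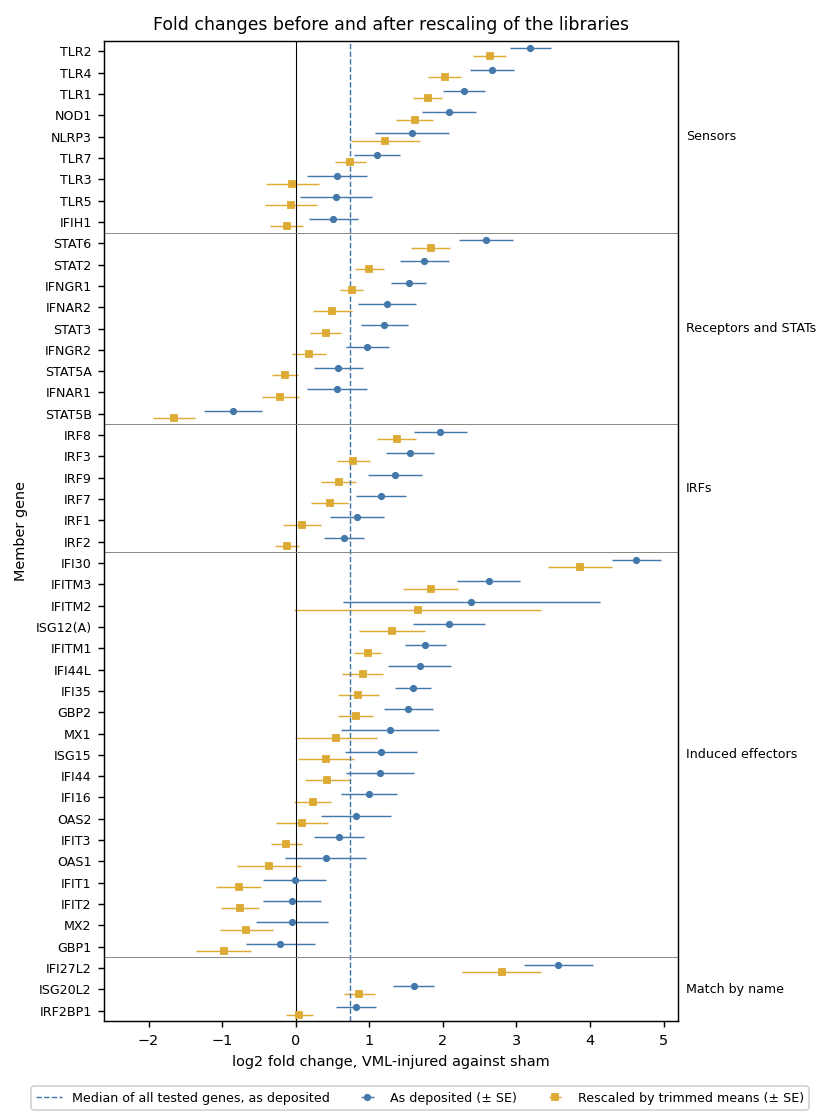
Log2 fold change of VML-injured against sham-operated muscle (horizontal axis) with its standard error for 46 of the 47 tested members (vertical axis, grouped by role), as deposited (blue circles) and after rescaling by trimmed means (yellow squares). The dashed line is the median of all tested genes as deposited, 0.73, and the rescaled points lie to the left of the deposited ones and cross 0 for OAS1, IFIT3, IFNAR1, STAT5A, IRF2, IFIH1, TLR3 and TLR5.

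Other genes of these pathways were counted from 2 lists. Of 32 tested signalling genes, 18 were higher (56.3%, beside 49.4% of all tested genes) and 0 lower (beside 7.66%). The median log2 fold change was 1.03 beside 0.73. Rescaled, 14 were higher (43.8%, beside 29.0%) and 6 lower (18.8%, beside 28.0%). CD14 and LY96 (MD-2), which hand lipopolysaccharide to TLR4, rose by 3.82 and 3.81, and MYD88, the adaptor of most TLRs, by 2.69, all called on both scales. PTPN6 (SHP-1), a phosphatase of hematopoietic cells, rose by 2.97, and CASP1, the protease of the NLRP3 inflammasome, by 2.01. Both, with SOCS1, IKBKE, TICAM1, DHX58 and TRIM25 in the count of 18, passed the filter on low values only through injured limbs. Their calls are no support for a difference. JAK1, the kinase shared by the interferon receptors, rose by 1.11 as deposited and was not called rescaled (0.32), and TYK2 was not called (0.65, and -0.12 rescaled). MAVS, the mitochondrial adaptor of the RNA sensors, had a log2 fold change of -0.29 as deposited and was lower only after rescaling (-1.07, limma adjusted p = 0.00837).

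Of 27 other interferon targets tested, 14 were higher (51.9%), a share near the 49.4% of all tested genes. As deposited 0 were lower (beside 7.66%), and the median log2 fold change was 0.86. Rescaled, 5 were higher (18.5%, beside 29.0%) and 0 lower (beside 28.0%), with a median of 0.16 beside 0.01. WARS, a tRNA synthetase induced by type II interferon, rose by 1.66, the immunoproteasome subunit PSMB10 by 1.60 and the nuclear body gene SP110 by 1.58, called on both scales. PSMB8, another immunoproteasome subunit, rose by 1.29 as deposited alone. TAP1, the peptide transporter, rose by 2.25 ± 0.81 (SE), a call that ended on rescaling and without any of 4 limbs. TAP1 passed the filter on low values only through injured limbs, so its call is no support for a difference. B2M, the light chain of MHC class I, was not called (0.65, limma adjusted p = 0.0745, and -0.15 rescaled).

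Transcripts of the interferons themselves were scarce. Of 34 interferon genes listed 4 were tested, 3 were listed at 0 in every library, and no value exceeded 8.07 TPM. IFNB1 did not exceed 0.0981 TPM and IFNG did not exceed 0.339 TPM. IFN-OMEGA-3 was listed at 0 and 0.152 TPM in sham-operated and at 0.917 to 2.53 TPM in injured limbs, and IFN-ALPHA-8 was listed at 0 in both shams and at 0.172 to 2.76 TPM in injured limbs. Both passed the filter on low values only through injured limbs, so their calls as higher are no support for a difference. IFN-ALPHA-15 and IFNA1 were not called, and since pig type I interferon genes are near-identical copies, the assignment of reads among them is uncertain.

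The 3 injured conditions were then compared with sham 1 by 1, with the same 2 sham-operated limbs in each. In ECM-repaired muscle 27 members were higher and 1 lower, beside 48.0% and 10.0% of all tested genes, with a median log2 fold change of 1.25 beside 0.71. In non-repaired muscle 24 were higher and 0 lower, beside 45.1% and 1.18%, with a median of 1.38 beside 0.89. In Hya-repaired muscle 20 were higher and 0 lower, beside 33.9% and 3.76%, with a median of 1.10 beside 0.60. Rescaled, the members higher and lower were 20 and 4 in ECM-repaired muscle, beside 29.5% and 29.4% of all tested genes. They were 14 and 2 in non-repaired muscle, beside 22.1% and 20.8%, and 18 and 1 in Hya-repaired muscle, beside 23.4% and 19.2%. As deposited, the counts fell without the sham-operated limb of pig 025. The non-repaired count also fell without pig 023 and the Hya-repaired count without pig 016. Each of these fits keeps 1 limb in a group, which weakens the test of every gene. Fitted with the sham and Hya-repaired limbs alone, 11 members were higher in Hya-repaired muscle. The shares of all tested genes in these fits are not given here, so the falls are not read as a trait of the members.

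Differences among the injured conditions were not detected. ECM-repaired against non-repaired, Hya-repaired against non-repaired, ECM-repaired against Hya-repaired and ECM-repaired against injured limbs without ECM each had 0 members past the limma threshold, beside 0% of all tested genes. At an unadjusted p under 0.05 these comparisons held 0, 2, 2 and 0 members, out of 71, 196, 206 and 114 tested genes, and rescaled 1, 2, 2 and 4 members out of 119, 167, 359 and 247. As deposited the lowest limma adjusted p of a member was 0.904. As deposited, the members of smallest p were TLR1 and IFNAR1 between Hya-repaired and non-repaired muscle, with log2 differences of -0.92 (95% interval -1.70 to -0.15) and -1.16 (-2.27 to -0.05), and TLR1 and TLR7 between ECM-repaired and Hya-repaired muscle, at 0.93 (0.29 to 1.56) and 0.72 (0.01 to 1.42). IFITM2 and IFI27L2 between ECM-repaired and non-repaired muscle had log2 differences of -3.10 (-7.09 to 0.88) and 0.81 (-0.23 to 1.85), and NLRP3 and TLR7 in ECM-repaired against the other injured limbs had 0.88 (-0.01 to 1.76) and 0.52 (-0.04 to 1.08). The median half-width of the unadjusted 95% interval over the members was 0.81 on the log2 scale for ECM-repaired against non-repaired. It was 1.00 for Hya-repaired against non-repaired. These widths are not the limit of detection at the adjusted threshold. Larger differences were not called either, among them -3.10 for IFITM2 in the first comparison and -1.16 for IFNAR1 in the second.

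Injured limbs differed more for MX1 than for TLR2. The range of MX1 over the 10 injured limbs was 10.9-fold and its log2 SD of 0.94 exceeded that of 95.7% of tested genes, whereas TLR2 spanned 2.61-fold, at 48.4%. The Hya-repaired limb of pig 016 was the highest injured limb for IRF2BP1, IRF7, IRF9, ISG12(A), ISG15, ISG20L2, MX1 and OAS2. Against the other Hya-repaired limb, of pig 017, it held 5.77 times the MX1, 5.05 times the ISG12(A), 4.44 times the ISG15, 3.11 times the OAS2 and 2.78 times the IRF7 level. These 5 were taken from the genes for which that limb was highest. Across the 47 tested members the median ratio was 1.98, beside 1.38 for all tested genes. The ratio was 3.40 for IFI27L2, 3.14 for NLRP3, 3.05 for NOD1 and 2.79 for STAT6. It was 1.28 for IFIT1, 1.24 for IFIT2, 1.13 for IFI16 and 0.833 for IFITM2. Muscle fiber transcripts held 1.77% of the listed TPM in the first limb and 11.7% in the second, and the part this had in the ratios was not tested. The 5 ratios exceeded the same ratio in 99.7, 99.7, 99.3, 97.4 and 94.8% of tested genes, and after rescaling MX1 and ISG15 still differed 4.37-fold and 3.37-fold. The ECM-repaired limb of pig 024 was highest for 29 of 47 members as deposited and for 9 rescaled. The Hya-repaired limb of pig 017 was lowest for 25 and 13. The shares of all tested genes highest or lowest in these limbs are not given here, so these counts are not read as a trait of the members.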

How the data were processed

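RNA was measured in 12 PT muscle libraries of 4 conditions, grouped by the condition in the sample labels, with 2 limbs each of sham-operated, non-repaired and Hya-repaired muscle and 6 of ECM-repaired muscle. The authors ran kallisto on paired-end TruSeq reads against the annotated pig genome, and the resulting TPM were used as deposited, 1 column for each library. DESeq is also named in the submitters' processing notes, and versions are not given in the sources used here. TPM keep no read counts, so the depth behind each value and its counting precision are not known and no count test was run. The members and gene lists were chosen with earlier results of these data known. Of names that begin with LOC, 618 of 1833 were given a RefSeq symbol of the Sscrofa11.1 assembly, and 0 of those met the naming rule. Another 21 names had become dates and stayed in the fit unnamed. No columns of other samples were present. No sequences or coordinates are given, and 2 members enter the counts but are not reported here by name.

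A gene was tested if every library of some condition held it at 1 TPM or more. limma 3.58.1 in R 4.3.3 was fitted to log2(TPM + 0.5) of all 12 libraries, with a coefficient per condition and trend and robust estimation, and p was adjusted by the Benjamini-Hochberg method over the tested genes of each comparison. The fit was tested on simulated data before use. Most conditions held 2 limbs, so the p-values rest on few limbs. The spread of limbs within conditions was pooled over all 12 libraries into 1 variance per gene. The ECM-repaired limbs, the largest group, contributed most to it, and it was then drawn toward the variance of other genes. The p-values against sham are therefore not a measure of the spread between the 2 limbs of a condition alone. The 2 limbs of pig 017 were treated as independent. Levels in TPM, by limb or as a range over limbs, are given for ISG15, MX1, IFIT1, IFITM3, OAS1, GBP1, IFI30, STAT3, IRF1, IRF3, IRF7, IRF8, IRF9, IFNAR1, IFNGR1, TLR2, TLR3, TLR4, TLR7, NOD1 and NLRP3. Also given are the 5 largest rises and falls past the threshold, members called against the direction of the median of all tested genes, and the 2 of smallest p in each comparison among injured conditions. Of other pathway genes, JAK1, TYK2, MYD88, MAVS, CASP1, PSMB8, TAP1, B2M and the 3 of smallest p in each list are named. STAT6, the interferon genes and the effectors set between the limbs of pigs 016 and 017 were chosen after their values were seen. The alternatives were 2 rescalings, pseudocounts of 0.1 and 1, no filter and at least 1 TPM in all 12 libraries, limma with neither trend nor robust estimation, a 2-fold threshold, the compared conditions alone, each limb left out, and pig 017 left out. Plots used matplotlib 3.10.9 in Python 3.11.15.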

Additional observations from a re-analysis of the deposited data

Results flagged for a closer look

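Of the 47 tested members, 1 had an ECM-repaired limb that stood apart from the other 5. MX1 in the limb of pig 013 was at 2.71 TPM, while the others ranged from 10.6 to 19.5 TPM. On the log2(TPM + 0.5) scale the gap to the next limb was 0.679 of the whole range of the 6, above the 95% critical value of Dixon's test for 6 samples. Chance alone sets about 1 in 20 such groups apart, and without this limb MX1 passed the limma threshold in VML-injured muscle.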

How the results depend on the processing

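Both rescalings gave 5 members lower in VML-injured, 4 in ECM-repaired, 2 in non-repaired and 1 in Hya-repaired muscle, and 14 higher in non-repaired muscle. The compared conditions alone gave 11 higher in Hya-repaired muscle and 36 in non-repaired muscle. With single limbs left out, 15 to 34 members were higher and 0 to 1 lower in VML-injured, 16 to 29 and 0 to 1 in ECM-repaired, 15 to 30 and 0 in non-repaired, and 8 to 26 and 0 in Hya-repaired muscle. The lowest counts came without the sham-operated limb of pig 025, for non-repaired muscle also without pig 023 and for Hya-repaired also without pig 016. These fits keep 1 limb in a group, which weakens the test of every gene. In VML-injured muscle 1 member was lower without the ECM-repaired limb of pig 024. Shares of all tested genes are not given for fits with limbs left out or with the compared conditions alone. Under trimmed-mean and median-of-ratios rescaling the log2 fold changes that changed sign were OAS1 (-0.36 and -0.38), IFNAR1 (-0.21 and -0.22), TLR3 (-0.045 and -0.054), IFIH1 (-0.12 and -0.13), IFIT3 (-0.13 and -0.14), IRF2 (-0.11 and -0.13), STAT5A (-0.15 and -0.16) and TLR5 (-0.063 and -0.073). Without both limbs of pig 017 those that did were IFIT1 (0.21), GBP1 (0.027), IFIT2 (0.11) and MX2 (0.22). With single limbs left out they were IFIT1 (-0.18 to 0.15), OAS1 (-0.28 to 1.10), TLR3 (-0.021 to 1.15), IFIT2 (-0.17 to 0.069) and MX2 (-0.22 to 0.12). Each rescaling ended the call of 8 members in VML-injured muscle and added 4 with the same sign, and 13 lost it without pig 025. The causes were not tested. Pseudocounts and limma without trend and robust estimation changed at most 1 of 46 calls in VML-injured muscle, and no filter ended 2. For VML-injured muscle the compared conditions alone are all 12 libraries. That fit repeats the main one and could not change a call. The comparisons among injured conditions had 0 calls under every alternative. No paired analysis was possible because the conditions share pig 017 alone and the other replicate numbers only name samples.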
